A study of Mus musculus with 4 samples.

Results

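Transcripts of the 7 phosphofructokinase genes were examined in bulk RNA sequencing of 4 KP lung tumours. The genes are the 3 isoforms of phosphofructokinase-1 (PFK-1), *Pfkl*, *Pfkm* and *Pfkp*, and the 4 bifunctional regulators of the PFKFB family, *Pfkfb1*, *Pfkfb2*, *Pfkfb3* and *Pfkfb4*. They were taken as the rows of the count table that carry these symbols, and are 7 of the 39017 genes in that table. The symbols were chosen with earlier results of these data known. All 7 passed the filter on low values, a mean of at least 1 CPM (the count scaled to a library of 1000000 reads), together with 14225 genes in all.

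The tumours were macrodissected from the lungs of male C57BL/6 KP mice, in which an oncogenic Ras allele is switched on by Cre and both copies of p53 (p53Fl/Fl) are removed by it. Each mouse had received 1500 viral units of lenti.PGK-Cre into the trachea, and tumours were collected after 22 weeks and 5 days and then dissociated into single cells. The PGK promoter is active in most cell types, so Cre was not restricted to 1 type of lung cell. The labels give 1 group, Control, with a genotype of heterozygous fl/wt that names no gene, while columns of a deposited table mark the same tumours as WT. In the methods, control mice either were wild type or carried 1 floxed copy of *Slc2a1*, which encodes the glucose transporter Glut1. With 1 group, each comparison below is between tumours or between genes within a tumour. The labels do not say that each tumour came from a different mouse, so the spread between tumours may be smaller than that between animals.

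PFK-1 converts fructose 6-phosphate to fructose 1,6-bisphosphate, the committed step of glycolysis. It works as a tetramer of L (liver), M (muscle) and P (platelet) subunits, is inhibited by ATP and citrate, and is activated by AMP and by fructose 2,6-bisphosphate. The PFKFB enzymes make and break down fructose 2,6-bisphosphate with a kinase and a phosphatase domain in 1 polypeptide, and their isoforms differ in the balance of both activities: PFKFB3 is mostly a kinase, PFKFB1 is the liver and muscle form, PFKFB2 the heart form and PFKFB4 was first described in testis. Expression of PFKFB3 and PFKFB4 is known to respond to hypoxia in many cells. Transcript levels do not give enzyme activity, which also depends on these metabolites and on phosphorylation.

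Total counts were between 8151613 and 8799007 per tumour, and the 7 genes together held between 4736 and 5866 reads in each. CPM was computed on library sizes corrected by TMM, a scaling that sets the bulk of genes equal between libraries. Defining transcripts of alveolar type 2 cells, from which tumours of this model commonly arise, were abundant, with a summed level of 33010 CPM over 9 genes in tumour 1 and of 53420 to 61110 CPM in the other tumours. In bulk tissue, fewer cells of a type and less RNA per cell cannot be told apart.

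Sequence upstream of a RefSeq transcript start is shown for the 3 genes that varied most between tumours, *Pfkp*, *Pfkfb2* and *Pfkl*. The windows are the first RefSeq windows of each gene on GRCm38.p6, 5′ to 3′ on the minus strand, taken from the 250 bases before the start and cut where they entered an exon of GENCODE M21. Capitals mark matches on either strand. The first motif, GCGTG, and its variant with a leading A, written ACGTG, are the core of the site that hypoxia-inducible factors bind. The other motif is CACGTG, the E-box that Myc and other factors bind, and it holds the variant core on each strand. The *Pfkp* window is chr13:6648778-6649021, the *Pfkfb2* window chr1:130715822-130716071 and the *Pfkl* window chr10:78009808-78010004. Only the *Pfkp* window lies outside the gene span printed below. The *Pfkfb2* and *Pfkl* windows lie inside the spans of their genes, before RefSeq starts that are internal to the annotated gene.
Pfkp: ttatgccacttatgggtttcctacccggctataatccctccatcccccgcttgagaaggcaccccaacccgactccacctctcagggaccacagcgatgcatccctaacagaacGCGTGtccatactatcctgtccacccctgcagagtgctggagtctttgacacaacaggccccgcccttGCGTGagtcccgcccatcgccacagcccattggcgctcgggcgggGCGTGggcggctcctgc
Pfkfb2: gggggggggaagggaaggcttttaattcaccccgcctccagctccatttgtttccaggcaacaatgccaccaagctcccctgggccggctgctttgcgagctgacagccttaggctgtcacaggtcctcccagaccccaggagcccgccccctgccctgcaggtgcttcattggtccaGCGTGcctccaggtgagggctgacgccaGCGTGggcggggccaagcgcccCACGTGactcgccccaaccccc
Pfkl: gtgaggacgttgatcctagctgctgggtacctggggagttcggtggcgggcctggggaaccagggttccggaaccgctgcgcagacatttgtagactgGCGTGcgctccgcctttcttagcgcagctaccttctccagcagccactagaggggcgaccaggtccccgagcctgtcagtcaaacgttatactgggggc
The *Pfkp* window held the core 3 times, the nearest 18 bases before the start. The first *Pfkfb2* window held it 4 times, counting CACGTG on both strands, the nearest 16 bases before the start. The *Pfkl* window held it once, 94 bases before the start. In RefSeq the 7 genes have 16 such windows of 250 bases, and 12 of the 16 held the core, compared with 38.6% of 32851 mouse windows. CACGTG was in 3 of the 16 windows, 1 each of *Pfkm*, *Pfkfb2* and *Pfkfb3*, compared with 6.02% of all windows. Windows of 1 gene can overlap. GC content was 62.8% for *Pfkp*, 66.8% for *Pfkfb2* and 59.2% for *Pfkl*, compared with a median of 52.4%, and its part in the motif counts was not tested. A match is a description of letters and not a measured binding site.

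Of the PFK-1 isoforms, *Pfkl* and *Pfkp* were highest in tumour 1, whereas *Pfkm* was lowest there. *Pfkl* (chromosome 10, 77986947 to 78010083, minus strand, GRCm38), the subunit that dominates in liver, had 230.1, 159.1, 133.0 and 135.9 CPM in tumours 1 to 4, a mean of 164.5 ± 45.22 (SD, n = 4). Tumour 1 stood above the others, which were within 133.0 to 159.1 CPM, and the highest level was 1.73 times the lowest. *Pfkp* (chromosome 13, 6579768 to 6648777, minus strand), the platelet type subunit that many tumours express, had 131.2, 64.0, 46.4 and 45.2 CPM, a mean of 71.69 ± 40.57 (SD, n = 4). It had the widest spread of the 7 genes, 2.902-fold, with tumour 1 far above the rest and tumours 3 and 4 almost level. *Pfkm* (chromosome 15, 98092589 to 98132451, plus strand), the only subunit of adult skeletal muscle, had 26.52, 34.73, 30.97 and 35.32 CPM, a mean of 31.89 ± 4.065 (SD, n = 4). Its range was 1.332-fold, and tumour 1, the highest for the other 2 subunits, was the lowest for *Pfkm*.

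Among the bifunctional regulators, *Pfkfb2* was the most abundant and the most variable, and its order over tumours differed from that of *Pfkl* and *Pfkp*. *Pfkfb2* (chromosome 1, 130689182 to 130729253, minus strand), whose protein is known as a target of kinases such as Akt and AMPK, had 139.3, 162.7, 294.3 and 226.7 CPM, a mean of 205.8 ± 69.64 (SD, n = 4). Tumour 3 was 2.113 times tumour 1, the lowest. *Pfkfb3* (chromosome 2, 11471433 to 11554077, minus strand), the isoform with the strongest kinase bias, had 63.82, 59.36, 65.9 and 48.88 CPM, a mean of 59.49 ± 7.579 (SD, n = 4). Tumours 1 to 3 were close to each other and tumour 4 was below them. *Pfkfb4* (chromosome 9, 108991778 to 109032228, plus strand) had 50.62, 66.91, 65.28 and 73.74 CPM, a mean of 64.14 ± 9.731 (SD, n = 4), with tumour 1 lowest and the others within 65.28 to 73.74. *Pfkfb1* (chromosome X, 150588229 to 150643878, plus strand) was near the lower end of detection, with 36, 28, 36 and 33 reads, or 3.961, 3.252, 4.443 and 3.925 CPM. This is above the floor of 3 reads, which was at most 0.37 CPM in any tumour.

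**Figure D1:**
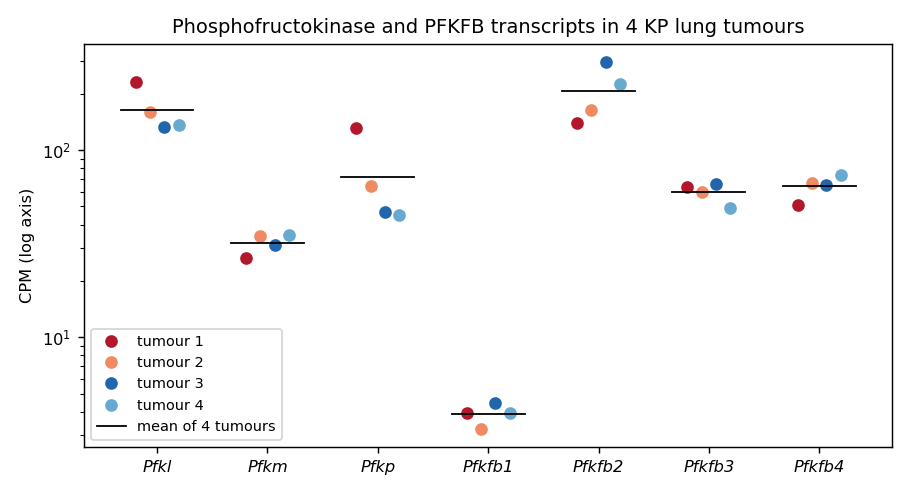
CPM (log axis) of the 7 genes in each of the 4 KP tumours, with a bar at the mean. Tumour 1 is highest for *Pfkl* (230.1) and *Pfkp* (131.2) and lowest for *Pfkm* (26.52), *Pfkfb2* (139.3) and *Pfkfb4* (50.62).

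To ask whether these differences between tumours exceeded counting error, the 4 counts of each gene were compared with Poisson expectations by a chi-square test over all 14225 genes with Benjamini-Hochberg adjustment. 6 of the 7 genes varied beyond counting noise, which was true of 76.7% of all genes tested and so is not particular to the family. The adjusted p was 4.45e-69 for *Pfkl*, 1.06e-127 for *Pfkp*, 2.52e-129 for *Pfkfb2*, 3.96e-08 for *Pfkfb4*, 4.21e-05 for *Pfkfb3* and 0.00497 for *Pfkm*. *Pfkfb1* did not pass (adjusted p = 0.694), and its SD on the log2 scale, 0.184, was below the 0.252 that counting alone gives at its depth. Without tumour 1, *Pfkm* (adjusted p = 0.328) and *Pfkfb4* (adjusted p = 0.129) no longer passed, while 62.3% of genes did. Without tumour 4, *Pfkfb3* did not pass (adjusted p = 0.259), with 71.9% of genes passing. The chi-square test asks only about counting noise, so p-values reflect depth as well as spread.

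Over the 4 tumours, 3 genes had an SD above the median of all genes and 4 below it. The SD of log2 CPM was 0.715 for *Pfkp*, 0.484 for *Pfkfb2* and 0.365 for *Pfkl*, all above the median of 0.294 over the genes tested. It was 0.231 for *Pfkfb4*, 0.193 for *Pfkfb3*, 0.190 for *Pfkm* and 0.184 for *Pfkfb1*, all below it, and the median of the 7 was 0.231. Of all genes tested, 12.0% had an SD as large as that of *Pfkp* or larger, 24.4% as that of *Pfkfb2* and 37.7% as that of *Pfkl*. The biological coefficient of variation, which edgeR estimates for each gene with information from other genes, was 38.9% for *Pfkp*, 28.0% for *Pfkfb2* and 24.0% for *Pfkl*. It was 19.5 to 21.2% for *Pfkm*, *Pfkfb3* and *Pfkfb4*, with a median of 25.7% over genes. For *Pfkfb1* it was 31.7%, although its SD was the smallest of the 7 and below what counting alone gives. That value therefore does not show a spread of *Pfkfb1* between tumours. Tumour 1 decided much of the SD of some genes: without it the SD fell to 0.279 for *Pfkp* and 0.140 for *Pfkl*, and also to 0.101 for *Pfkm* and 0.092 for *Pfkfb4*. *Pfkl* was then below *Pfkfb1* (0.225) and *Pfkfb3* (0.220), while *Pfkfb2* stayed at 0.430. In none of the 7 genes did a single tumour stand apart by Dixon's ratio, which 5.86% of all genes exceeded.

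**Figure D2:**
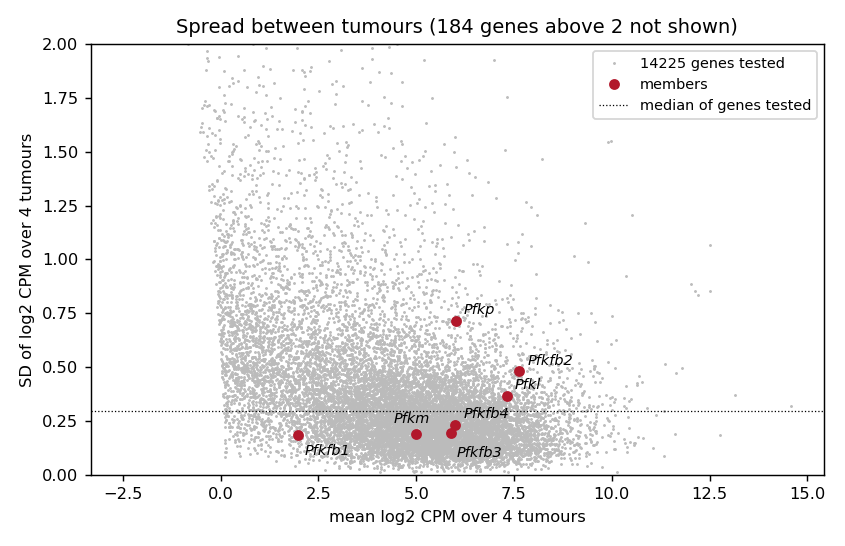
SD of log2 CPM over the 4 tumours against mean log2 CPM for 14225 genes (grey; 184 genes with an SD above 2 are outside the axis), with the 7 genes in red and the median SD of 0.294 as a dotted line. *Pfkp*, *Pfkfb2* and *Pfkl* lie above the line and the other 4 genes below it.

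Of the 6 genes that varied, 2 were highest in tumour 1 (*Pfkl* and *Pfkp*; 25.1% of all genes tested varied and were highest there). In tumour 3, 2 were highest (*Pfkfb2* and *Pfkfb3*; 23.3% of all genes), as were 2 in tumour 4 (*Pfkm* and *Pfkfb4*; 12.6%), and 0 were highest in tumour 2 (15.6%). Relative to its own mean, *Pfkp* was 1.02 higher on the log2 scale in tumour 1 and *Pfkl* 0.52 higher, while *Pfkfb2* was at -0.50, *Pfkfb4* at -0.33 and *Pfkm* at -0.26. In tumour 3 the order turned, with *Pfkfb2* at 0.58, *Pfkp* at -0.48 and *Pfkl* at -0.27. The ratio of *Pfkp* to *Pfkfb2* CPM was therefore 0.942, 0.393, 0.158 and 0.199 in tumours 1 to 4, a 5.97-fold range.

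**Figure D3:**
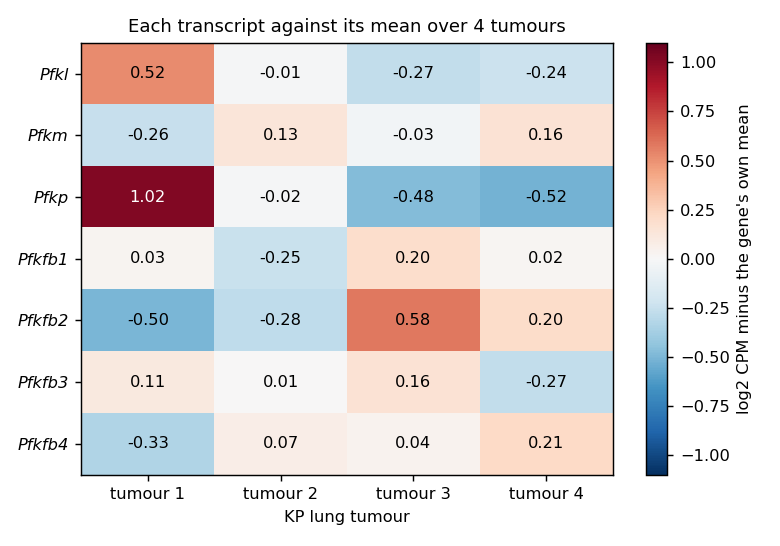
Log2 CPM of each gene (rows) in each tumour (columns) minus the gene's own mean over the 4 tumours; red is above the mean and blue below. *Pfkp* (1.02) and *Pfkl* (0.52) are red in tumour 1, where *Pfkfb2* (-0.50) is blue, and *Pfkfb2* is red in tumour 3 (0.58).

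The distance between genes was measured as the root mean square difference of log2 CPM after each gene was centred on its own mean. Across the 21 pairs of the family, *Pfkm* and *Pfkfb4* were closest (0.065) and *Pfkp* and *Pfkfb2* farthest (1.001), and *Pfkl* and *Pfkp* differed by 0.304. In the pool of 9865 protein-coding genes with a mean of at least 10 CPM, the nearest to *Pfkp* were *Mif*, a cytokine (0.065), *Igsf8* (0.089) and *Evl*, an actin regulator (0.090), and only 4 genes lay within 0.1. *Mif* had 57.0, 30.78, 22.21 and 21.88 CPM, following the steps of *Pfkp*. Nearest to *Pfkfb2* were *Cyth3* (0.031), *Rab11fip2* (0.040) and *Rab11fip1* (0.050), of 55 genes within 0.1. The last 2 encode effectors of the Rab11 recycling pathway. *Rab11fip1* had 87.37, 106.6, 196.1 and 138.3 CPM. Nearest to *Pfkl* were *Mesdc2* (0.020), *Zfp213* (0.028) and *Sgol1* (0.031), of 129 genes within 0.1. The other 4 genes varied little, and 300 to 438 genes lay within 0.1 of each, so their nearest genes separate poorly from the rest: *2610015P09Rik*, *Urb1* and *Zfyve9* for *Pfkm*, *Ralgapa1*, *Otud5* and *Tmem234* for *Pfkfb1*, *Dnajc25*, *Zmym1* and *Clpb* for *Pfkfb3*, and *Kctd6*, *Qtrtd1* and *Rwdd2b* for *Pfkfb4*. With 4 tumours, likeness is a description and was not tested.

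To compare isoforms with each other, CPM was divided by gene length in kilobases, taken as all annotated exonic bases. *Pfkl* was the main PFK-1 transcript in each tumour. It had 34.47, 23.84, 19.93 and 20.37 CPM per kilobase in tumours 1 to 4, which was 66.04, 61.11, 61.01 and 59.35% of the PFK-1 sum. Its mean share was 61.88 ± 2.889% (SD, n = 4), compared with 25.27 ± 6.919% for *Pfkm* and 12.86 ± 4.057% for *Pfkp*. *Pfkm* made up 15.21% in tumour 1 and 26.65 to 30.82% in the others, while *Pfkp* made up 18.75% in tumour 1 and 9.828 to 12.24% in the others. The place of *Pfkm* and *Pfkp* depends on the length used: the annotation gives *Pfkp* 13401 exonic bases, including an 8681-nt transcript with a retained intron, and a longest protein-coding transcript of 4145 nt. With the latter, *Pfkp* had 22.65 ± 5.693% and *Pfkm* 16.36 ± 5.108%, and *Pfkl* stayed at 61.0 ± 0.7245% (SD, n = 4).

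The PFKFB transcripts were led by *Pfkfb2*, with 49.22, 50.06, 63.61 and 58.07% of their sum per kilobase, a mean of 55.24 ± 6.858% (SD, n = 4). *Pfkfb4* followed with 26.58 ± 4.077%, then *Pfkfb3* with 16.21 ± 4.291% and *Pfkfb1* with 1.971 ± 0.373%. *Pfkfb3* made up 21.64% in tumour 1 and 12.01% in tumour 4, and its share was lowest in tumours 3 and 4, where that of *Pfkfb2* was highest. The order *Pfkfb2*, *Pfkfb4*, *Pfkfb3*, *Pfkfb1* held in each tumour and with both lengths.

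**Figure D4:**
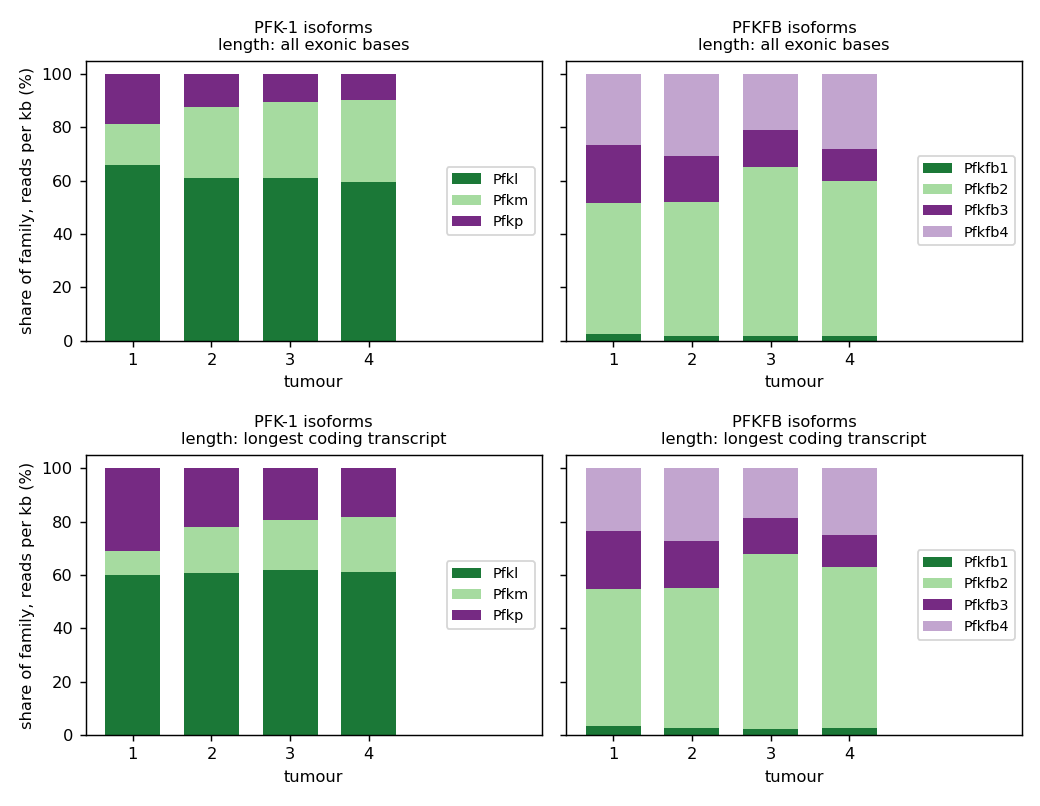
Stacked bars of the share (%) of each isoform in its family's CPM per kilobase, by tumour, with length taken as all exonic bases (top) or as the longest coding transcript (bottom). *Pfkl* (mean 61.88%) and *Pfkfb2* (mean 55.24%) are the largest parts of their families in each tumour. By mean share, *Pfkm* is above *Pfkp* at the top and below it at the bottom. In tumour 1 *Pfkp* is above *Pfkm* in both, and in tumour 4 *Pfkm* is above *Pfkp* in both.

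Within-tumour differences were tested for the 9 pairs inside both families by an exact permutation test that flips the sign of each tumour's difference (two-sided), for which the smallest p with 4 tumours is 0.125, so that no pair could pass 0.05. On the log2 scale per kilobase, *Pfkl* was above *Pfkm* by 1.34 ± 0.53 and above *Pfkp* by 2.31 ± 0.35 in 4 of 4 tumours (exact p = 0.125 each). *Pfkfb2* was above *Pfkfb4* by 1.06 ± 0.39 and above *Pfkfb3* by 1.80 ± 0.53, and the difference of *Pfkfb3* minus *Pfkfb4* was -0.74 ± 0.39, each with the same sign in 4 of 4 tumours (exact p = 0.125). *Pfkfb1* was the lowest in 4 of 4 tumours, with differences of -4.80 to *Pfkfb2*, -3.74 to *Pfkfb4* and -3.00 to *Pfkfb3* (exact p = 0.125 each). *Pfkm* minus *Pfkp* was 0.97 ± 0.88, positive in 3 of 4 tumours (exact p = 0.25), and -0.51 ± 0.88 with the coding transcript length, positive in 1 of 4 (exact p = 0.375). These 2 isoforms are thus not ordered by the data.

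Summed over isoforms, the families ran in opposite orders over the 4 tumours. The PFK-1 sum was 52.2, 39.02, 32.67 and 34.32 CPM per kilobase, highest in tumour 1 and lowest in tumour 3. The PFKFB sum was 39.01, 44.82, 63.79 and 53.82, lowest in tumour 1 and highest in tumour 3. The ratio of the PFK-1 to the PFKFB sum was 1.34, 0.871, 0.512 and 0.638 in tumours 1 to 4, a 2.61-fold range, and a 2.94-fold range with the coding transcript length. The opposite order rests on *Pfkl*, *Pfkp* and *Pfkfb2*, the genes of largest spread, and was not tested over 4 tumours of 1 group.

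Reads of neighbouring genes bear on some of these values, because the strand setting of the counting is not given in the sources used here. *Pfkp* shares 748 nt of annotated transcript, at 100% identity, with *Pitrm1*, a protease gene on the opposite strand, which had 997, 812, 737 and 634 reads in tumours 1 to 4 against 1192, 551, 376 and 380 for *Pfkp*. *Pitrm1* was thus also highest in tumour 1, with a smaller range than *Pfkp*. *Pfkfb2* shares 158 nt with *Yod1* on the opposite strand, which had 115, 144, 200 and 159 reads against 1266, 1401, 2385 and 1906. It also shares 1197 nt with the overlapping gene model *Gm29427*, which is not in the count table. *Pfkfb2* also overlaps *Gm37163*, and *Pfkfb3* overlaps *Gm10851* and *Gm37975*, none of which is in the count table. *Pfkm* overlaps *Senp1* and *Gm26513* (3 to 10 reads), and shares 345 nt at 99.71% identity with *Gm26513*, on the same strand. *Pfkfb1* overlaps *Apex2*, and *Pfkl* and *Pfkfb4* overlap no other annotated gene. How far shared reads moved the values was not tested.

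The step opposed to PFK-1 is run by fructose 1,6-bisphosphatase, of which *Fbp1* is the liver form and *Fbp2* the muscle form, and TIGAR, encoded by *Tigar*, breaks down fructose 2,6-bisphosphate. *Fbp1* was low, with 0.6602, 1.51, 2.715 and 3.092 CPM (adjusted p = 0.00141), lowest in tumour 1, where the PFK-1 sum was highest. The PFK-1 sum was above *Fbp1* by 6.96, 5.41, 4.33 and 4.21 on the log2 scale per kilobase in tumours 1 to 4 (mean 5.23 ± 1.27; exact p = 0.125, the smallest possible). *Fbp2* was far above *Fbp1*, with 43.13, 9.293, 41.96 and 73.38 CPM (adjusted p = 4.17e-89), lowest in tumour 2 and highest in tumour 4. When *Fbp1* and *Fbp2* were summed, a comparison added after the data were seen, the PFK-1 sum was above them by 0.81, 2.42 and 0.11 in tumours 1 to 3 and at -0.59 in tumour 4 (mean 0.69 ± 1.29; exact p = 0.375). With the coding transcript length these differences were 1.66, 3.14, 0.81 and 0.08, positive in 4 of 4 tumours (mean 1.42 ± 1.31; exact p = 0.125), so the sign in tumour 4 depends on the length used. That the gap was smaller than that to *Fbp1* alone follows from adding *Fbp2* to the subtracted sum. *Tigar* had 19.7, 23.81, 24.68 and 17.36 CPM (adjusted p = 0.00431), a 1.42-fold range.

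Most other enzymes of glycolysis were highest in tumour 1, as were *Pfkl* and *Pfkp*. Of 14 such genes, 11 varied beyond counting noise, and 9 of the 14 both varied and were highest in tumour 1. Of all genes tested, 76.7% varied, and 25.1% both varied and were highest there. The median SD of the 14 genes on the log2 scale was 0.389, above the 0.294 of all genes. The 2 with the largest SD were *Gapdh*, with 678.5, 206.5, 563.7 and 415.9 CPM, and *Pkm*, the pyruvate kinase gene of most tissues, with 1538, 1031, 809.8 and 661.3 CPM. *Pkm* had the same order of tumours as *Pfkp*, whereas *Gapdh* was lowest in tumour 2. Per kilobase of exonic sequence, the PFK-1 sum (39.55 ± 8.851; SD, n = 4) was the second lowest of 11 steps, above the hexokinases *Hk1*, *Hk2* and *Hk3* (32.32 ± 4.23) and close to *Pgam1* (41.24 ± 14.09). *Ldha* (446.4 ± 116.5) was the highest. With coding transcript lengths the PFK-1 sum was the third lowest, at 72.49 ± 20.78, above *Pgam1* (46.05 ± 15.73). Several genes of lower glycolysis, *Gapdh* among them, have near-identical pseudogene copies, so their counts are uncertain.

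**Figure D5:**
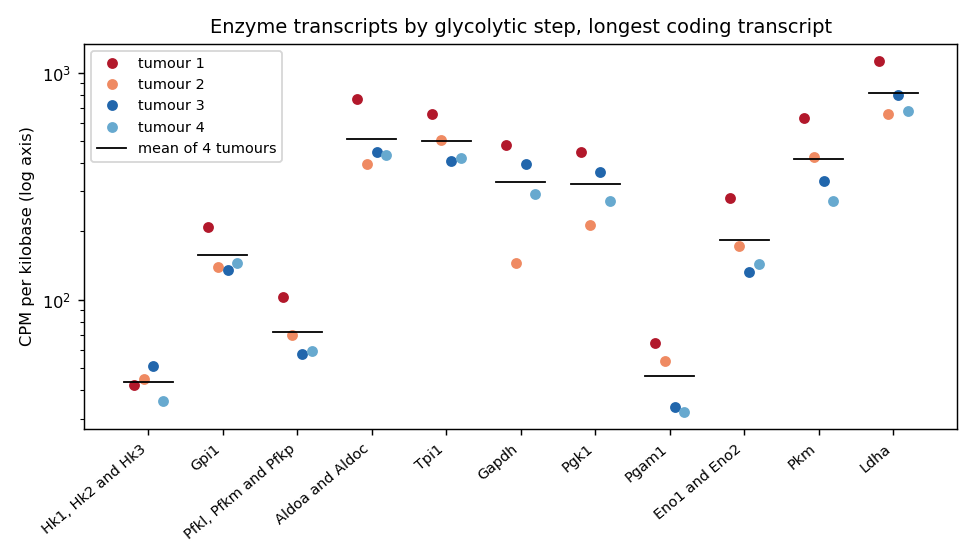
CPM per kilobase of the longest coding transcript (log axis) for the enzymes of each glycolytic step in the 4 tumours, with a bar at the mean. The PFK-1 sum (mean 72.49) lies above the hexokinases and *Pgam1* (46.05) and below the other steps, and tumour 1 is the highest for each step except the hexokinases.

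Genes of the regulators of these enzymes were read from lists of kinases and ubiquitin ligases, hypoxia, and Myc and proliferation. Of 12 kinases and ubiquitin ligases reported to act on PFK-1 or PFKFB proteins, 11 varied and 6 of these were highest in tumour 1. *Rps6ka1*, which encodes the kinase RSK1, had 87.7, 68.19, 46.4 and 50.31 CPM, and *Akt1* had 260.9, 177.6, 169.2 and 166.6 CPM. Both were highest in tumour 1, where *Pfkfb2* was lowest. Of 13 hypoxia factors and responsive genes, all 13 varied and 7 were highest in tumour 1, with a median SD of 0.498. *Ndrg1* had 337.4, 162.9, 116.0 and 210.8 CPM, and *Ankrd37* 23.0, 12.66, 10.37 and 26.17 CPM. In tumour 1, the PFK-1 genes *Pfkl* (230.1 CPM) and *Pfkp* (131.2 CPM) were at their highest and *Pfkm* (26.52 CPM) at its lowest. Of the PFKFB genes named above for a hypoxic response, *Pfkfb4* was highest in tumour 4 and lowest in tumour 1. *Pfkfb3* had 63.82 CPM in tumour 1 and 65.9 CPM in tumour 3, its highest. Its counts in tumours 1 to 3 did not differ beyond counting noise (chi-square, adjusted p = 0.259). The part of hypoxia in these levels was not tested. Of 8 genes of Myc and proliferation, all 8 varied and 5 were highest in tumour 1, among them *Myc* itself with 32.9, 17.54, 18.63 and 26.4 CPM. *Mcm2*, a replication licensing factor, had 73.94, 85.03, 52.45 and 43.77 CPM, highest in tumour 2. Of all 50 genes of these lists, glycolysis and the opposing enzymes included, 46 varied, and 27 of the 50 both varied and were highest in tumour 1. Of all genes tested, 76.7% varied, and 25.1% both varied and were highest in tumour 1.

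Markers of cell types also differed between the tumours. Tumour 1 had the highest summed level of 5 epithelial markers, 4430 CPM compared with 2660 to 2819 in the others, with *Krt19* at 457.4 and 153.8 to 186.7 CPM and *Epcam* at 600.3 and 217.6 to 470.4 CPM. Of the 5, 4 were highest in tumour 1, whereas *Cdh1*, named after its values were seen, was lowest there, at 841.6 compared with 846.1 to 887.5 CPM. It had the lowest sum of alveolar type 2 markers, 0 of 9 of which were highest there, with *Lamp3* at 420.3 compared with 1867 to 2515 CPM and *Sftpa1* at 1956 compared with 6988 to 9244 CPM, the 2 markers of largest SD. *Sftpb* (8261 and 6601 CPM in tumours 1 and 3) and *Abca3* (875.5 and 759.4 CPM), named after their values were seen, were lowest in tumour 3. The part of these markers in the result was not tested.

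Tumour 3, where *Pfkfb2* was highest, had the highest level of 6 of 6 leukocyte markers and 7 of 7 macrophage markers. The leukocyte sum was 353.8 CPM there and 144.9 to 201.5 CPM in the others, with *Ptprc* (CD45) at 83.42 compared with 26.19 to 38.54 CPM and *Coro1a* at 25.67 compared with 9.243 to 12.55 CPM. The macrophage sum was 258.1, 311.5, 1099 and 547.9 CPM, in the same order of tumours as *Pfkfb2* itself, with *Chil3* at 121.4, 159.1, 774.7 and 355.1 CPM and *Ear2* at 25.75, 27.07, 89.59 and 51.86 CPM. *Mrc1* was lowest in tumour 2 (39.73 CPM) and *Csf1r* in tumour 4 (32.59 CPM), both named after their values were seen. The other macrophage markers had the same order of tumours as *Pfkfb2*. No defining marker of either list was at 0. The part of these cells in the level of *Pfkfb2* was not tested.

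The other lists gave smaller or different patterns. Neutrophil markers summed to 28.07 to 68.61 CPM, highest in tumour 3, with *Cxcr2* at 3.081, 15.8, 29.12 and 9.991 CPM and *S100a9* at 5.471 to 13.94 CPM, but only 3 of the 6 were highest there. Of the others, named after their values were seen, *S100a8* and *Mmp9* were highest in tumour 1 and *Retnlg* in tumour 4. Red cell markers summed to 109.8 CPM in tumour 3 and 32.29 to 45.08 CPM in the others, led there by *Hbb-bt* (70.22 CPM) and *Hbb-bs* (24.43 CPM). Of 5 platelet markers, which bear on *Pfkp*, 2 passed the filter on low values and both varied. *Pf4* had 15.84, 198.6, 30.48 and 21.77 CPM, highest in tumour 2. *Itga2b*, named after its values were seen, had 4.511, 3.02, 1.604 and 2.022 CPM (adjusted p = 0.00241), highest in tumour 1 as *Pfkp* was. *Gp9* and *Gp1ba* were at 0 in each tumour, and the part of platelets in the level of *Pfkp* was not tested. Muscle markers, which bear on *Pfkm* and *Fbp2*, summed to 4.319 to 5.471 CPM over 7 genes, with *Myl7*, *Actn2* and *Acta1* at 3 or fewer reads per tumour. Endothelial markers summed to 211.2 to 211.8 CPM in tumours 1, 2 and 4 and 272.1 CPM in tumour 3, with *Pecam1* at 70.53 to 110.3 and *Emcn* at 20.69 to 33.44 CPM. Of the 6, 4 were highest in tumour 3. *Cdh5* (60.19 CPM) was highest in tumour 1 and *Kdr* (41.0 CPM) in tumour 2, both named after their values were seen. Fibroblast markers summed to 301 to 530.9 CPM, with *Col1a1* at 125.1, 66.91, 49.36 and 32.23 CPM, highest in tumour 1, and *Pdgfra* at 8.473 to 35.05 CPM, highest in tumour 3.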

How the data were processed

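Bulk RNA of 4 macrodissected KP tumours was sequenced, 1 library per tumour, in 1 group, with stranded libraries of polyadenylated RNA made from 500 ng of total RNA. The authors trimmed 85-nt single-end reads, aligned them with HISAT2 to mm10 and counted them per gene. Their processing notes name bcl2fastq 2.17, cutadapt 1.4.2, featureCounts 1.4.4 and edgeR. The strand setting and the annotation release are not given in the sources used here. The deposited tables hold raw counts with no normalization, and 156068 of 156068 values of the single-tumour tables equalled those of the combined table. The deposited log2 table, which the authors made with TMM and voom, served only as an alternative for the spread between tumours.

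Library totals were multiplied by TMM factors (edgeR 4.0.16, R 4.3.3) to give effective sizes, and log2 CPM had 0.5 added to counts and 1 to sizes. Genes with a mean of at least 1 CPM were tested by chi-square with 3 degrees of freedom and called at an adjusted p below 0.05. A tumour stood apart where Dixon's ratio passed the 95% critical value for 4 values. Within-tumour differences were tested by exact sign flips (Python 3.11.15). Lengths and overlaps come from GENCODE M21 on GRCm38, in which 96.6% of gene IDs were found, and shared stretches (80 nt or longer, 97% identity or higher) were found with BLAST 2.17.0. The scripts were tested on simulated data. Intervals and floors cover counting error only. With 1 library per tumour, p-values measure a spread that may be partly technical. Where tumours share a mouse, that spread is not one between animals.

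Named were the 7 genes, the genes of opposing enzymes, the 3 genes nearest to each member, and the 2 genes of largest SD of each other list, among those with a mean of at least 10 CPM. The members, the 15 lists with 112 genes, all of which were found in the table, and the tests were chosen with earlier results of these data known. Alternatives were DESeq2 1.42.0 size factors, library size alone, the deposited log2 values, other filters on low CPM, other added counts, other gene lengths and leaving out each tumour.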

Additional observations from a re-analysis of the deposited data

Results flagged for a closer look

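Of 98 sets of 4 values checked with Dixon's ratio, 6 had a tumour outside its 95% critical value, and chance alone flags about 5% of such sets, or 4.9 of them. The share of *Pfkfb1* in the PFKFB sum per kilobase was 2.53% in tumour 1, above the 1.734 to 1.815% of the other tumours (ratio 0.897), while its own CPM in tumour 1 lay inside the range of the others. *Akt1*, which encodes a kinase known to act on the PFKFB2 protein, had 261 CPM in tumour 1, above the others (ratio 0.858). *Lamp3*, a lamellar body protein of alveolar type 2 cells, had 420 CPM in tumour 1, below the others (ratio 0.833). The summed level of 5 epithelial markers was 4430 CPM in tumour 1, above the others (ratio 0.886), and that of endothelial markers 272 CPM in tumour 3 (ratio 0.989). *S100a8*, a neutrophil marker, had 3.81 CPM in tumour 4, below the others (ratio 0.858).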

How the results depend on the processing

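Of 240 values recomputed under alternatives, 1 reversed and 10 moved by more than the spread between tumours (shares) or over 1.5 times (SDs). The other 229 did neither, though within-tumour differences among them were judged by sign alone. The shares that moved did so with the length chosen. With the longest annotated transcript, *Pfkl* made up 69.23% of PFK-1. With the longest protein-coding transcript, chosen after the annotation was seen, *Pfkm* made up 16.36%, *Pfkp* 22.65% and *Pfkfb1* 2.686%, and *Pfkm* minus *Pfkp* reversed to -0.505. The PFK-1 difference to *Fbp1* kept its sign but went from 5.225 to 0.687 with *Fbp2* added, and *Pfkm* minus *Pfkp* from 0.974 to 0.562 with the longest annotated transcript. The members varying beyond counting noise were 4 without tumour 1 and 5 without tumour 4, against 6. Of all genes tested, 62.3% varied without tumour 1 and 71.9% without tumour 4, against 76.7%. Leaving out single tumours moved SDs of log2 CPM: without tumour 1 they were 0.140 (*Pfkl*), 0.101 (*Pfkm*), 0.279 (*Pfkp*) and 0.092 (*Pfkfb4*), without tumour 2 0.099 (*Pfkfb1*) and without tumour 4 0.078 (*Pfkfb3*). Dixon's ratio was not run on 3 tumours, and with 3 tumours sign flips cannot go below 0.25. No paired analysis was possible because the labels give 1 group, so no tumours can be paired across groups; sign flips paired genes within a tumour. At this depth, the spread of *Pfkfb1* between tumours was not detectable.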
